A study of Mus musculus with 2 samples.

Results

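The EGF receptor family was examined through 10 mouse genes: the receptor genes Egfr, Erbb2 and Erbb3 and the ligand genes Areg, Btc, Epgn, Ereg, Hbegf, Tgfa and Nrg1. Their members on the array were all non-control probes that the scanner files name after one of these genes, which gave 27 of 41174 gene probes. Of these 27 probes, 24 were bright enough to be tested, and each of the 10 genes kept at least 1 of them, out of 13527 genes tested in all. The samples were mouse keratinocytes, the main cell of the epidermis, in a single pair of genotypes compared on 2 two-colour arrays. The mutant keratinocytes carried a deletion of Chuk, the gene of the kinase IKK-alpha, made through loxP sites, and their RNA was labelled with Cy5. The wild-type keratinocytes were labelled with Cy3. No treatment, time, strain, Cre driver or animal age is stated in the labels, and they do not say whether the cells came from separate cultures or animals. Each p-value therefore rests only on spread between 2 arrays, pooled in large part over all tested probes, and that spread may be technical. The labels name 1 dye for each genotype and no swap, so a dye effect and a genotype effect cannot be told apart for any probe.

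The receptors of this family are tyrosine kinases that pair up when a ligand binds. ERBB2 binds no ligand of its own and serves as a partner, whereas ERBB3 binds neuregulins but has little kinase activity. The EGF-like ligands are made as membrane-anchored precursors that proteases cut free, and active receptors signal through the RAS to ERK and the PI3K to AKT pathways. In epidermis, keratinocytes make several of these ligands themselves, and EGF receptor signalling is known for keeping basal keratinocytes dividing and for holding back their differentiation.

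The arrays agreed closely across genes. Over all 13527 genes the log2 ratios of Cy5 over Cy3 on array 1 and array 2 had a Pearson correlation of 0.961, a description across genes that are not independent replicates. The share of gene spots well above background lay between 57.4% and 64.5% in Cy5 and between 53.2% and 59.1% in Cy3. The deleted gene itself went against its label: the channel labelled Chuk-deleted was the brighter one at both Chuk probes, by a log2 ratio of 0.74 ± 0.02 and 0.85 ± 0.11 (SD, n = 2). These ratios were -0.03 and 0.09 once the mean log2 ratio of the spike-in controls was subtracted. They were 1.35 and 1.32 when each array was centred on its own median without loess. Where these probes lie relative to the deleted part of the gene was not examined, so the check decides nothing, and all directions here are those of the channel labels. Keratinocytes were present in both channels, since the basal keratin genes Krt14 and Krt5 had normalised signals between 195135 and 299647. These 2 genes do not show whether other cell types were present as well.

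Scaling sets the zero of every ratio. Ratios are given after loess normalisation, which left the median of all tested genes at 0.02. Subtracting, per array, the mean log2 ratio of 320 spike-in control spots (the spike-in scaling) moved that median by -0.76, and centring each array on its own median without loess moved it by 0.53. Under all 3 scalings Epgn and the brightest Nrg1 probe were higher, and Erbb3, Btc and Tgfa lower, whereas Egfr, Ereg, Hbegf and Erbb2 turned lower under the spike-in scaling and Areg reached 0.00 under median centring. The plot of member genes under 4 normalisations shows these shifts.

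**Figure D1:**
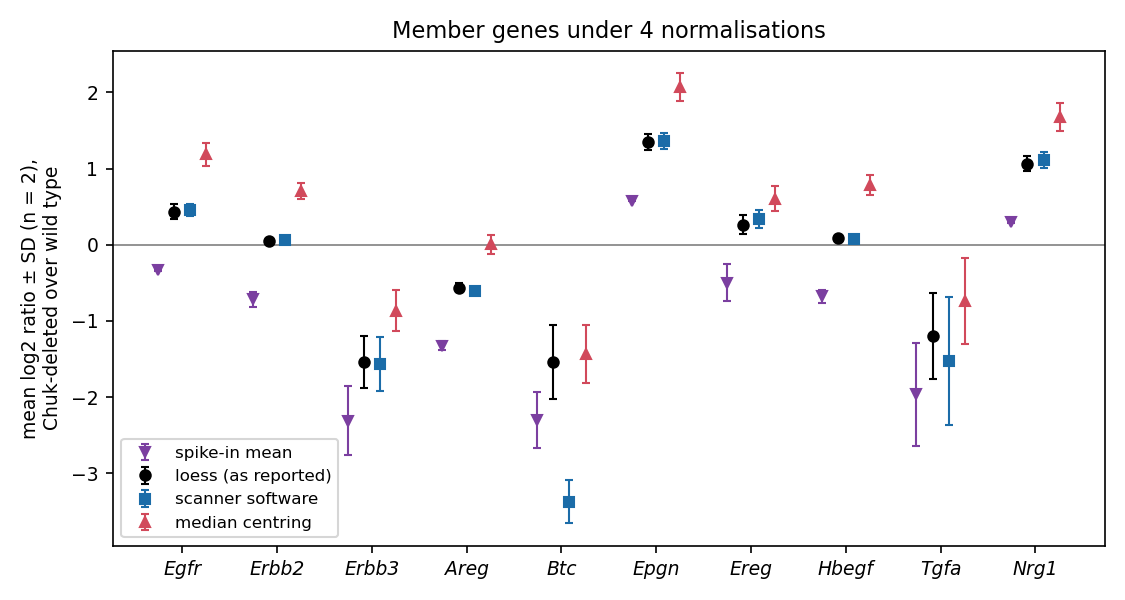
Mean log2 ratio of Chuk-deleted over wild type for the brightest tested probe of each member gene, with bars of 1 SD over 2 arrays, after 4 normalisations. The spike-in scaling puts 8 of the 10 genes below 0 and median centring puts 3 below 0, whereas the loess ratios and those of the scanner software lie close together except for Btc (-1.54 and -3.37) and Tgfa (-1.20 and -1.53).

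The family split in 2 directions. Each gene was read from its tested probe of highest mean intensity, and a gene was called at an adjusted p under 0.05 (limma, Benjamini-Hochberg over 23519 probes). On that rule Epgn, Nrg1, Egfr and Ereg rose, Erbb3, Btc, Tgfa and Areg fell, and Erbb2 and Hbegf did not pass. Of all 13527 genes 33% were called higher and 28.2% lower, 61.2% in either direction, and the 8 of 10 members have to be read against that rate. The split was 4 and 4 after loess, but 2 higher and 8 lower after the spike-in scaling and 6 higher and 3 lower after median centring. All 10 genes and all 24 tested probes had the same sign on both arrays, against 89.4% of all genes. The median signed log2 ratio of the 10 genes was 0.07, against 0.02 over all genes. Their median absolute log2 ratio was 0.81, against 0.21 over all genes, but this contrast rests on the scaling, with 0.70 against 0.75 under the spike-in scaling and 0.83 against 0.59 under median centring. The 10th and 90th percentiles of all genes were -0.48 and 0.49, and 6 of the 10 members lay outside them. This count was also 6 under median centring, but 5 with the processed signals of the scanner software. It was 5 of 9 members where both channels had to be well above background. The spike-in scaling moves members and percentiles alike, so it cannot change the count. The members were chosen with earlier results of these data known. Neither this count nor the median absolute ratio therefore tests whether the family changed more than other genes. Changes of at least 2-fold on both arrays were found in Epgn, higher, and in Erbb3 and Btc, lower, where 1.51% of all genes were at least 2-fold higher and 3.22% at least 2-fold lower. Without array 1 these counts would be 2 higher and 3 lower, because Nrg1 (0.99 on array 1) and Tgfa (-0.80 on array 1) fell short of 2-fold on that array.

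**Figure D2:**
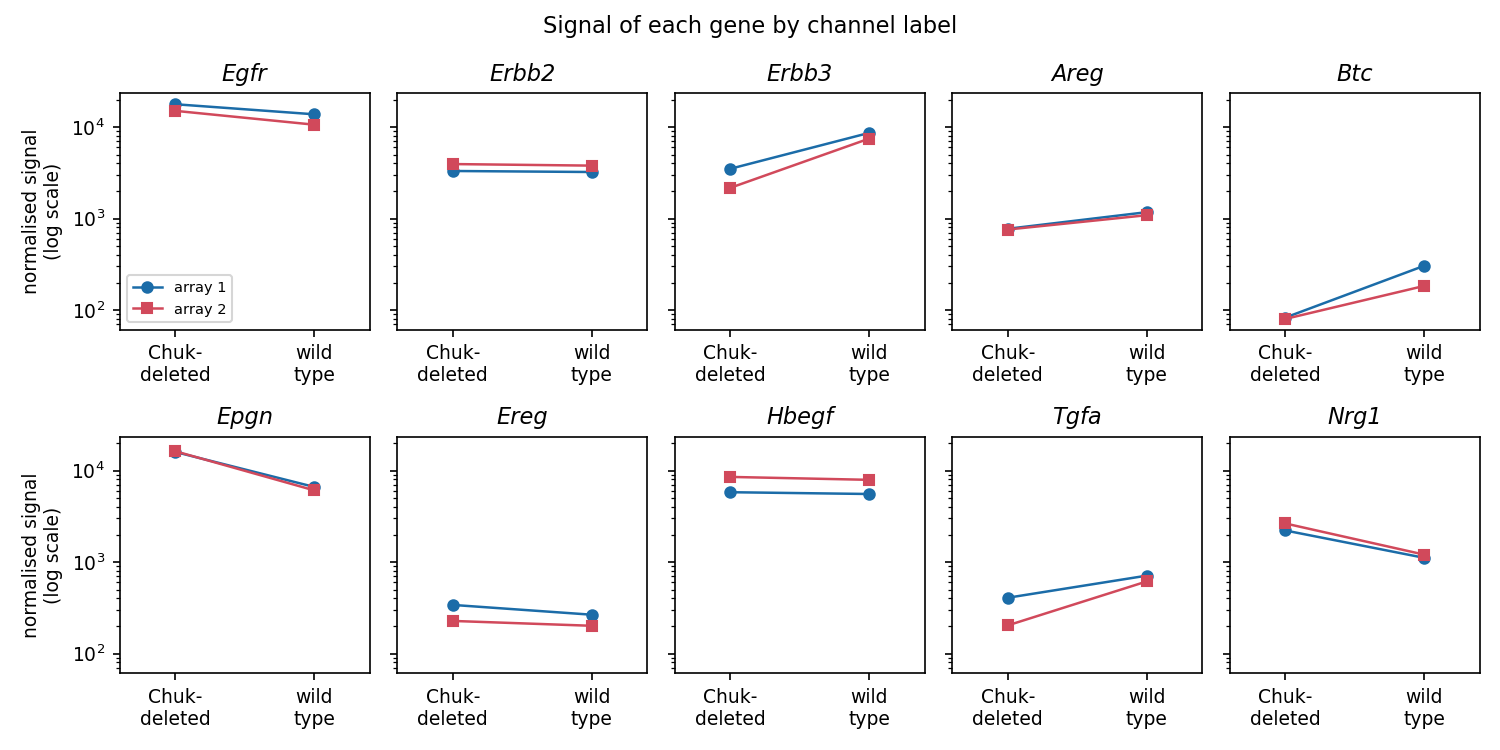
Normalised signal, on a log scale, of the brightest tested probe of each member gene in the Chuk-deleted and the wild-type channel, with 1 line per array. The mutant point is the higher one on both arrays for Epgn, Nrg1, Egfr and, by less, Ereg, Hbegf and Erbb2. It is the lower one on both arrays for Erbb3, Btc, Tgfa and Areg. Egfr, Ereg, Hbegf and Erbb2 turn under the spike-in scaling, and Areg reaches 0.00 in mean ratio under median centring. Signals of different genes come from different probes and have no order.

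Egfr encodes the receptor of EGF itself and of most ligands described here. Its brightest probe, A_52_P106259, had signals of 17771 and 15050 in Chuk-deleted cells on arrays 1 and 2, against 13798 and 10625 in wild-type cells. The mutant channel was the brighter one on both arrays, with log2 ratios of 0.37 and 0.50 and a mean of 0.43 ± 0.10 (SD, n = 2; 1.35-fold, adjusted p = 0.00109, limma). Of its 6 probes 5 were called higher, with means between 0.33 and 0.79, where 33.5% of all tested probes were called higher and 27.9% lower. The highest, A_52_P5855, was well above background in the wild-type channel on 1 array and lay at 2.02 with the processed signals of the scanner software. The probe A_52_P674338, which the file pairs with the same transcript record as the brightest one, lay at -0.06 ± 0.04 and did not pass (adjusted p = 0.381, limma). The rise of Egfr was not kept under the spike-in scaling, where the brightest probe lay at -0.33 and 4 of the 5 called probes fell below 0.

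Erbb2 encodes the partner receptor without a ligand. Its brightest probe, A_52_P49250, had signals of 3312 and 3943 in Chuk-deleted cells, against 3228 and 3791 in wild-type cells. These lay close together, with a mean log2 ratio of 0.05 ± 0.01 (SD, n = 2; adjusted p = 0.457, limma). The dimmer probe A_51_P216179 had signals of 145 and 140 in Chuk-deleted cells, against 188 and 186 in wild-type cells, and was called lower at -0.39 ± 0.03 (adjusted p = 0.00103, limma). When the probes of a gene were averaged, Erbb2 passed as lower (-0.17, adjusted p = 0.0216, limma), so the call depends on the probe. It also depends on the scaling: A_52_P49250 was called lower under the spike-in scaling, at -0.72, and higher under median centring, at 0.71.

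Erbb3, the neuregulin receptor, was among the members that fell. Its brightest probe, A_52_P432949, which the file pairs with a predicted transcript record, had signals of 3500 and 2167 in Chuk-deleted cells, against 8642 and 7484 in wild-type cells. The mutant channel was lower on both arrays, by a mean log2 ratio of -1.55 ± 0.34 (SD, n = 2), or 2.92-fold (adjusted p = 0.000109, limma), and the ratio was -2.31 under the spike-in scaling and -0.87 under median centring. The other 4 Erbb3 probes, all paired with a curated transcript record, were dim. A_51_P342050 had signals of 90.9 and 99.2 in Chuk-deleted cells, against 111 and 118 in wild-type cells, and was called lower at -0.27 ± 0.03. A_51_P414813 was not well above background in the mutant channel on either array and was at least 1.32-fold lower there (adjusted p = 0.000788, limma; measured means in log2 ratio -0.44 ± 0.07). A bound of this kind sets the wild-type mean against, per array, the higher of the dimmest signal well above background and the probe's own. The remaining 2 probes were not well above background in either channel and were not tested. Which transcripts separate the bright probe from the dim ones was not examined.

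Melanocytes also express Erbb3, and a set of 9 melanocyte marker genes moved in the same direction. All 8 of the 9 that could be tested fell, where 28.2% of all genes were called lower. The median log2 ratio of these markers was -0.88 (-1.64 under the spike-in scaling and -0.39 under median centring). Tyr, the pigment enzyme that defines these cells, was too dim to be tested, though it is among the 9 markers. Their summed signal was 18812 to 21222 in Chuk-deleted cells and 50122 to 51138 in wild-type cells. In RNA of mixed cells, fewer cells of a type and less RNA per cell cannot be told apart, and the part of melanocytes in the Erbb3 ratio was not tested.

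Erbb4, the fourth receptor of the family, is not among the 10 genes. On its only tested probe of 3 it rose by 0.39 ± 0.15 (SD, n = 2; adjusted p = 0.00291, limma) but lay at -0.38 under the spike-in scaling. The other family ligands on the array, Egf, Nrg3 and Nrg4, were too dim to be tested.

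**Figure D3:**
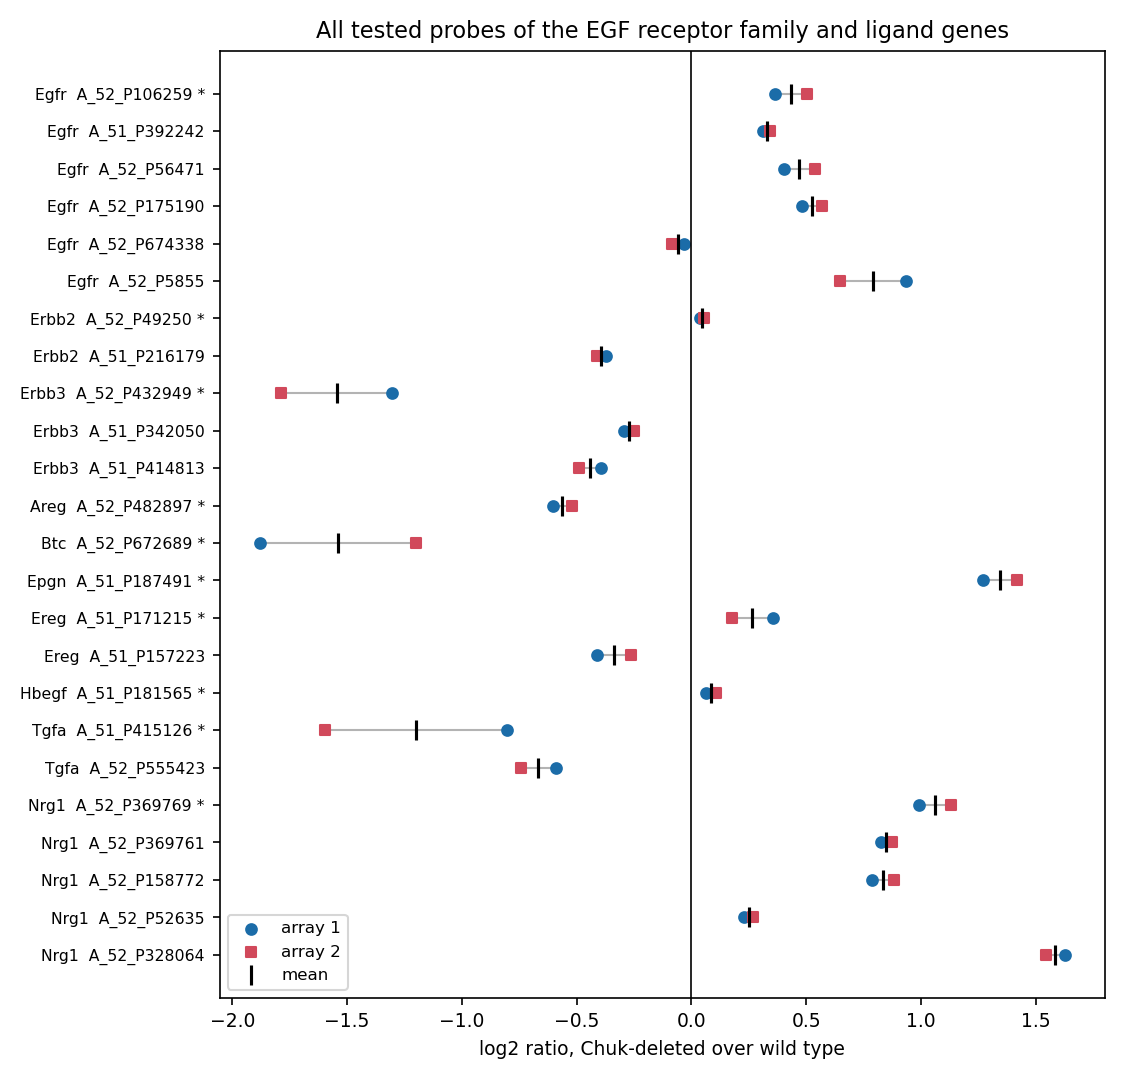
Log2 ratio of Chuk-deleted over wild type for all 24 tested member probes on each array after loess normalisation, with the mean as a bar and the probe that represents its gene marked with an asterisk. All 5 Nrg1 probes lie right of 0 (1 of them turns under the spike-in scaling), all 3 Erbb3 probes and both Tgfa probes lie left of it, and the Ereg probes lie on opposite sides.

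Of the EGF receptor's ligand genes, Epgn, Ereg, Areg and Btc follow each other along chromosome 5 as consecutive protein-coding genes in RefSeq. Their ratios in that order were 1.35, 0.27, -0.56 and -1.54, so the outer genes of the row differed most and in opposite directions. Their neighbour beyond Btc, Parm1, lay at 0.03 (adjusted p = 0.591, limma), and Mthfd2l, before Epgn, was too dim to be tested. Within the row only Epgn and Btc kept their sign under all 3 scalings. The size of the Btc ratio was not kept, at -3.37 with the processed signals of the scanner software. The middle of the row was not settled, since a second Ereg probe was called lower at -0.34 and Areg lay at 0.00 under median centring. Because neighbours moved apart, the 250 bases upstream of the annotated start are shown for the 3 of these genes with a promoter in the RefSeq table (GRCm38.p6), all 5′ to 3′ on the strand of the gene, with matches to the cAMP response element and to the TATA box in capitals.
Epgn (chr5:91027267-91027516, plus strand): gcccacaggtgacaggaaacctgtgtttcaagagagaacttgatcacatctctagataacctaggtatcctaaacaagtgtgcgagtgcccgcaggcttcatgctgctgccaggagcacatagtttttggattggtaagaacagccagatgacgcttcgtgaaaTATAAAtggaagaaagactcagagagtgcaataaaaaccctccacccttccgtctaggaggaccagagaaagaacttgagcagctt
Areg (chr5:91139349-91139598, plus strand): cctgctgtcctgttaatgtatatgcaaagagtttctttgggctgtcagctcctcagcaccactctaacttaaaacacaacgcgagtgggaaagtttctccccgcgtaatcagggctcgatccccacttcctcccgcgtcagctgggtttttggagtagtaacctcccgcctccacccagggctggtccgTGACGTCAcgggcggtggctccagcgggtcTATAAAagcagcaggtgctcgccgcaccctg
Btc (chr5:91402995-91403244, minus strand): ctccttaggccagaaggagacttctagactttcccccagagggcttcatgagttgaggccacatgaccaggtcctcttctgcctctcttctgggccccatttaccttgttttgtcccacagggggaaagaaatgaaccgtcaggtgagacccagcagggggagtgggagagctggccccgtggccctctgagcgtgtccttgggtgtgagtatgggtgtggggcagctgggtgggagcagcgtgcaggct

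The 3 windows differed in the motifs searched for, on both strands. The cAMP response element TGACGTCA was found in the Areg window from base -61 to base -54, counted from the annotated start, and in 1.55% of 32851 mouse windows of this length. TATAAA was found at base -31 in the Areg window and at base -86 in the Epgn window, and in 12.4% of all windows. The AP-1 letters TGANTCA, present in 6.75% of all windows, and the kappaB consensus, the binding motif of NF-kappaB factors, present in 5.0%, were in none of the windows of the 6 member genes that had one. The matches shown do not overlap one another. A match is only a match of letters, and binding was not measured.

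Epgn encodes epigen, an EGF receptor ligand of epithelia, and had the highest ratio of the 10 genes on their brightest tested probes. A dimmer Nrg1 probe, A_52_P328064, lay higher, at 1.59. The single Epgn probe, A_51_P187491, had signals of 15985 and 16281 in Chuk-deleted cells, against 6630 and 6082 in wild-type cells. The channels did not overlap, and the mean log2 ratio was 1.35 ± 0.11 (SD, n = 2; 2.54-fold, adjusted p = 3.19e-05, limma). It was 0.58 under the spike-in scaling and 2.07 under median centring.

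Ereg encodes epiregulin, a ligand of EGFR and ERBB4, and its probes were called in opposite directions. A_51_P171215 had signals of 340 and 227 in Chuk-deleted cells, against 266 and 201 in wild-type cells, and was called higher at 0.27 ± 0.13 (SD, n = 2; adjusted p = 0.0111, limma); without array 1 its ratio was 0.18. A_51_P157223 had signals of 155 and 157 in Chuk-deleted cells, against 206 and 189 in wild-type cells, and was called lower at -0.34 ± 0.10 (adjusted p = 0.0033, limma). Of the 5505 genes with several tested probes, 9.83% had probes called in both directions. The mean of both Ereg probes was -0.04 (adjusted p = 0.488, limma), and A_51_P171215 lay at -0.50 under the spike-in scaling, so no direction of Ereg held over probes and scalings.

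Areg encodes amphiregulin, a growth factor that keratinocytes make for themselves. Its probe A_52_P482897 had signals of 773 and 759 in Chuk-deleted cells, against 1175 and 1089 in wild-type cells. It fell on both arrays, with a mean log2 ratio of -0.56 ± 0.06 (SD, n = 2; 1.48-fold lower, adjusted p = 0.000297, limma), but lay at 0.00 under median centring.

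Btc encodes betacellulin, a ligand of EGFR and ERBB4. Its probe A_52_P672689 had signals of 82.8 and 80.0 in Chuk-deleted cells, against 305 and 184 in wild-type cells. The mutant channel was well above background on 1 of the 2 arrays, and its signals lay near the floor that background correction sets. The mean log2 ratio was -1.54 ± 0.48 (SD, n = 2; 2.91-fold lower, adjusted p = 0.00029, limma), whereas the signals processed by the scanner software, which subtracts the background, gave -3.37 ± 0.28. The direction held over both, and the size did not. The second Btc probe was not well above background in either channel on either array.

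The other EGF receptor ligands lie elsewhere in the genome. Hbegf encodes heparin-binding EGF-like growth factor, known for its part in the migration of keratinocytes over wounds. Its probe A_51_P181565 had signals of 5802 and 8525 in Chuk-deleted cells, against 5546 and 7923 in wild-type cells. The channels differed less than the arrays did, and the mean log2 ratio of 0.09 ± 0.03 (SD, n = 2) did not pass (adjusted p = 0.197, limma). Hbegf was called lower under the spike-in scaling, at -0.68, and higher under median centring, at 0.78.

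Tgfa encodes transforming growth factor alpha, an EGF receptor ligand made by keratinocytes. Its probe A_51_P415126 had signals of 408 and 203 in Chuk-deleted cells, against 710 and 614 in wild-type cells. Tgfa fell on both arrays, with a mean log2 ratio of -1.20 ± 0.56 (SD, n = 2; 2.29-fold lower, adjusted p = 0.0013, limma), and the second probe, A_52_P555423, at -0.67 ± 0.11, fell as well (adjusted p = 0.000229, limma). The arrays differed in size, with -0.80 on array 1 and -1.59 on array 2.

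The array design printed 10 spots each of A_51_P415126, of 2 Egfr probes and of 1 Erbb2 probe, which shows how precisely a single array measured them. Spots are technical repeats within an array and not replicates of the comparison. The 10 Tgfa spots ranged from -0.87 to -0.67 on array 1 and from -1.71 to -1.47 on array 2, with an SD of 0.07 and 0.08. The arrays thus differed by more than any difference among spots of 1 array. The Egfr probe A_52_P106259 also separated, at 0.34 to 0.39 on array 1 and 0.48 to 0.55 on array 2, whereas the Egfr probe A_51_P392242 and the Erbb2 probe overlapped between arrays.

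**Figure D4:**
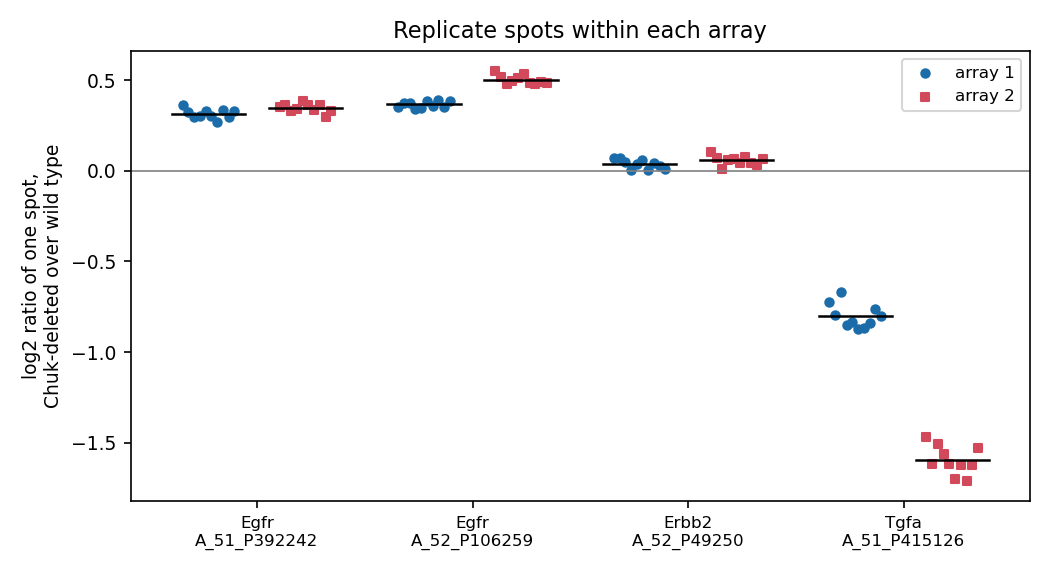
Log2 ratio of Chuk-deleted over wild type of the 10 spots of each of 4 member probes on each array after loess normalisation, with the mean as a line. The Tgfa spots form separate clouds at means of -0.80 and -1.59, while the Erbb2 spots of both arrays lie between 0.00 and 0.11; the Egfr and Erbb2 means turn negative under the spike-in scaling.

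Nrg1 encodes neuregulin 1, the ligand of ERBB3 and ERBB4, and rose on all of its probes after loess. The brightest, A_52_P369769, had signals of 2215 and 2642 in Chuk-deleted cells, against 1113 and 1206 in wild-type cells. The mean log2 ratio was 1.06 ± 0.10 (SD, n = 2; 2.09-fold, adjusted p = 5.29e-05, limma) and stayed at 0.30 under the spike-in scaling. All 5 probes were called higher, with means between 0.25 and 1.59, but under the spike-in scaling only A_52_P369769 and A_52_P328064 were, while A_52_P369761 (0.09) and A_52_P158772 (0.07) did not pass. The largest ratio was that of A_52_P328064, with signals of 610 and 588 in Chuk-deleted cells, against 198 and 201 in wild-type cells, or 3.0-fold (adjusted p = 2.35e-05, limma). The smallest was that of A_52_P52635, with 396 and 410 in Chuk-deleted cells, against 338 and 340 in wild-type cells, and that probe turned to -0.51 under the spike-in scaling. The probes are paired with different transcript records, and which Nrg1 isoforms they detect was not examined. Nrg1 and its receptor gene Erbb3 thus had ratios of opposite sign on both arrays.

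Fibroblasts are a known source of neuregulin 1, and fibroblast markers were also higher in the mutant channel. Of 18 such genes 17 were tested, 14 rose and 2 fell, where 33% of all genes were called higher and 28.2% lower. The median log2 ratio was 0.73 (-0.04 under the spike-in scaling and 1.59 under median centring). Fap, also among the 18 genes, was too dim to be tested. Their summed signal was 353949 to 366861 in Chuk-deleted cells and 156485 to 185684 in wild-type cells. The state of the keratinocytes differed as well: 13 of 13 tested differentiation markers fell, with a median of -2.32 (-3.08 under the spike-in scaling and -1.81 under median centring). The summed signal of differentiation markers was 24452 to 37078 in Chuk-deleted cells and 144369 to 204630 in wild-type cells. Basal keratinocyte markers rose in 13 of 14, with a median of 0.75 (-0.02 under the spike-in scaling and 1.49 under median centring). The part of these cell populations in the ratios of Nrg1 and of the other ligands was not tested. Of the immune markers 10 of 12 had a probe and 4 were tested, and of 7 endothelial markers 2 were tested.

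Beyond the 10 members, lists were read of the other family genes and of genes that release the ligands, restrain the receptors and carry their signal. The lists held 76 genes, Erbb4 included, of which 70 were tested. Of these 24 rose and 23 fell, with a median of -0.04 against 0.02 over all genes, and the split was 1 and 63 under the spike-in scaling and 56 and 4 under median centring. None of the 70 was at least 2-fold higher on both arrays, although 24 passed as higher with limma, and 2 were at least 2-fold lower. The called shares were thus 34.3% higher and 32.9% lower, against 33% and 28.2% of all genes.

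Ligand release had the lowest median of the 4 pathway lists with more than 1 tested gene. Of its 12 genes 3 rose and 6 fell, with a median of -0.20 (0.44 under median centring). Adam8, a membrane protease of the ADAM family, had signals of 42024 and 30025 in Chuk-deleted cells, against 128009 and 204262 in wild-type cells, a log2 ratio of -2.19 ± 0.82 (SD, n = 2; adjusted p = 0.000494, limma). Timp3, an inhibitor of metalloproteases that include ADAM17, had 12075 and 5516 in Chuk-deleted cells, against 27008 and 26780 in wild-type cells, a log2 ratio of -1.72 ± 0.79 (adjusted p = 0.0011, limma). A protease and an inhibitor thus fell together. Adam19 rose by 0.90 ± 0.14 on its brightest probe (0.14 under the spike-in scaling). Its other tested probe rose by 0.60, which the spike-in scaling, moving every mean by -0.76, puts below 0. Rhbdl2, a rhomboid protease, fell by 0.34 on its brightest probe (0.10 under median centring) while another lay at 0.68. The direction of Rhbdl2 thus depends on the probe and the scaling.

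Of 13 genes that restrain the receptors, 6 rose and 2 fell, with a median of 0.11 (-0.66 under the spike-in scaling). Lrig3 and Lrig1, of a family of membrane proteins in which LRIG1 lowers EGF receptor levels, rose by 0.62 ± 0.06 and 0.56 ± 0.05, and the receptor phosphatase gene Ptprk by 0.43 ± 0.18 on its brightest probe, though all 3 lay below 0 under the spike-in scaling (-0.14, -0.21 and -0.33). Of 4 tested Ptprk probes 2 were called higher, and the lowest lay at -0.0028. Cblc, a ubiquitin ligase of the CBL family, fell by 0.56 on the log2 scale (-0.06 under median centring).

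In the relay to ERK and PI3K, 4 of 24 tested genes rose and 10 fell, with a median of -0.07 (0.60 under median centring). Pik3cb, a catalytic subunit of PI3K, had signals of 412 and 362 in Chuk-deleted cells, against 784 and 899 in wild-type cells, a log2 ratio of -1.12 ± 0.27 (SD, n = 2; adjusted p = 0.000174, limma). Pik3r1, a regulatory subunit of PI3K, had 873 and 1253 in Chuk-deleted cells on its brightest probe, against 441 and 527 in wild-type cells. The log2 ratio of that probe was 1.12 ± 0.19 (adjusted p = 8.77e-05, limma), or 0.35 under the spike-in scaling. All 4 tested Pik3r1 probes were called higher, with means from 0.25 to 1.12. The spike-in scaling moves every mean by -0.76, which puts the lowest of them below 0. The adaptor gene Gab1 fell by 0.66 and Mapk3, which encodes ERK1, by 0.51 on the log2 scale, though Mapk3 lay at 0.15 under median centring.

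Among feedback regulators and targets of ERK, 10 of 20 tested genes rose and 5 fell, with a median of 0.12 (-0.64 under the spike-in scaling). Dusp6, a phosphatase of ERK that ERK signalling induces, had signals of 43623 and 69030 in Chuk-deleted cells, against 27527 and 39477 in wild-type cells, a log2 ratio of 0.74 ± 0.10 (SD, n = 2; adjusted p = 0.000154, limma). Etv1 and Egr1, transcription factors, rose by 0.64 ± 0.04 and 0.56 ± 0.18, but these and Dusp6 lay below 0 under the spike-in scaling (-0.12, -0.20 and -0.03). Ier3, an immediate early gene, fell by 0.75 on the log2 scale (adjusted p = 0.00119, limma; -0.017 under median centring).

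**Figure D5:**
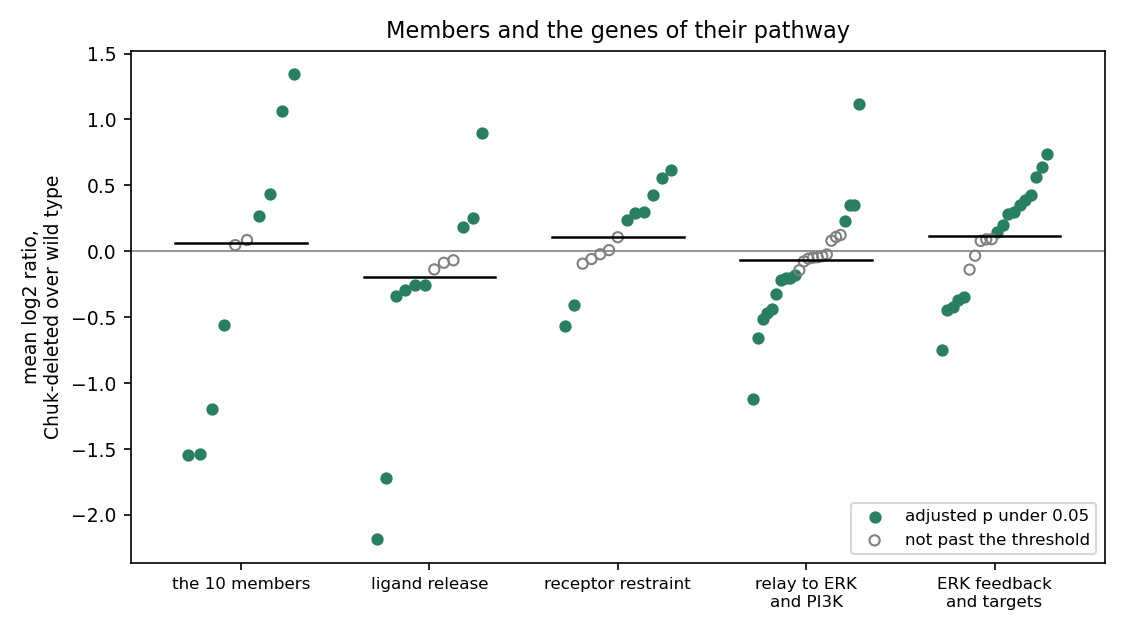
Mean log2 ratio of Chuk-deleted over wild type, after loess normalisation, of the 10 member genes and of the tested genes of 4 pathway lists, sorted within each list. Filled points passed an adjusted p under 0.05 and the line is the list's median, which lies between -0.20 and 0.12; the spike-in scaling moves every point down by 0.76.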

How the data were processed

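Total RNA of both genotypes was compared on 2 Agilent two-colour arrays that shared 1 slide and 1 scan. The spot intensity per channel and its local background were deposited as uncorrected scanner output of Agilent Feature Extraction, per the file headers. The deposited processed intensity was background subtracted and dye normalised within each array, per the file headers, and its log10 ratio is Cy5 over Cy3. The deposited value table equalled that log10 ratio to within 0.005 per spot, with a median of 0 in both columns. Flags of 0 or 1 were used to leave out outlier spots and to find spots well above background, per the file headers.

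With R 4.3.3 and limma 3.58.1, local background was corrected by normexp with an offset of 50 and ratios were normalised by loess within arrays, with control spots at weight 0. The tables were read with the data.table package, version 1.17.8. Spots of a probe were averaged. A probe was tested where, on each array, 1 channel or both stood well above background, which left 23519 probes. These were fitted with lmFit and eBayes (mean log2 ratio against 0, two-sided, Benjamini-Hochberg), with 1 residual and 5.16 prior degrees of freedom. The fit was tested on simulated data. A gene was read from its tested probe of highest mean intensity. Normalised signals are the channel values after loess and then Aquantile normalisation between arrays, with the offset included. Aquantile gives the mean intensities of the arrays the same distribution and leaves the ratios as they are. The mean intensity that picks a probe was taken after the same step. The offset draws ratios of dim probes towards 0. Signals of different probes were not compared. The number of arrays limits the precision. Names and gene order came from mouse RefSeq (GRCm38.p6), whose coordinates were used only for promoters. Accessions named 16129 tested probes, symbols 3311, synonyms 1410 and the file itself 389, while 2280 stayed unnamed.

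Members and lists were chosen with earlier results of these data known. Named genes were all members, the other family genes, up to 4 called genes of the same sign on both arrays with the largest ratio from each other pathway list, Chuk, and the 2 brightest genes of a marker list. No gene was named for a like pattern, since 2 ratios give none. Alternatives changed the background correction, scaling, filter on dim probes, choice of probe, source of values and rule for a call.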

Additional observations from a re-analysis of the deposited data

How the results depend on the processing

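Both the scaling and the rule for a call moved the counts. Median centring without loess gave 10120 genes higher and 975 lower, and the spike-in scaling 270 and 12308, against 4467 and 3808 after loess; 91.2% of calls were then higher under median centring and 2.15% under the spike-in scaling, against 54.0%. A shift of the median-centred ratios to the loess median, chosen after seeing the data, gave 60.2%. Member genes were 2 higher and 8 lower under the spike-in scaling, and pathway genes 56 higher and 4 lower under median centring and 1 and 63 under the spike-in scaling. A 2-fold rule on both arrays counted 204 higher and 436 lower among all genes, 1 and 2 among the members, and 0 and 2 among the pathway genes. Those 2-fold counts over all genes were 1288 and 225 under median centring, 29 and 2092 under the spike-in scaling, and 429 and 677 with the scanner software's processed signals; over the members they were 3 and 1, 0 and 4, and 2 and 2. With 1 array left out they ranged from 223 to 333 higher and from 458 to 575 lower over all genes, and from 1 to 2 higher and from 2 to 3 lower among the members; these additions were also chosen after seeing the data.

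The spike-in scaling turned the Egfr probes A_52_P106259 (-0.33), A_51_P392242 (-0.43), A_52_P56471 (-0.29) and A_52_P175190 (-0.24), Erbb2 A_52_P49250 (-0.72), Ereg A_51_P171215 (-0.50), Hbegf (-0.68), Nrg1 A_52_P52635 (-0.51), Erbb4 (-0.38) and Chuk A_51_P223475 (-0.026). Median centring turned Egfr A_52_P674338 (0.40) and Areg (0.0046). The mean of all probes turned Erbb2 (-0.17) and Ereg (-0.036). The spike-in scaling moves all ratios of an array by the same amount. Median centring leaves out loess and moved probes by different amounts: Areg went from -0.56 to 0.0046 and Btc from -1.54 to -1.44. The 2 probes of Chuk and 1 of Erbb4 with the 24 of the members made 27, and all 27 kept sign and call with the processed signals, a normexp offset of 16, Aquantile, no filter on dim probes and the deposited value table. So did all 23 of them that were well above background in both channels, a filter that left out Btc and 3 dim probes of Egfr and Erbb3. Aquantile changed no ratio, and both changes of the filter reuse the loess ratios, so none of these could turn a sign. The deposited value table nearly repeats the processed signals and is no separate check. Sign and call were kept by 12 of the 27 under the spike-in scaling, by 21 under median centring and by 24 after its shift to the loess median. All 27 kept their sign without either array, where no residual degree of freedom is left for a test, so counts of adjusted p-values have no such value. No paired analysis was possible because both arrays hold a single comparison of 2 genotypes and no second group shares their numbers. Signal over background limits Btc, 2 Erbb3 probes and the Egfr probe A_52_P5855.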
